A study of Mus musculus with 83 samples.

Results

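Vip, Crh, Penk and Cck encode 4 neuropeptide precursors of cortical interneurons that carry vasoactive intestinal peptide (VIP). They were chosen as a list of gene names, and all 4 are among the 48795 genes of the count table. Their levels are described here over 4 neuron types and 2 ages. RNA was sequenced from pools of 125 neurons cut by laser from 14 µm sections of frontal cortex of male C57BL/6 mice, which were young (2 months) or old (22 months) and for which the labels name no transgene or treatment. Cells were picked after staining for Slc17a7 (pyramidal cells, PYC), Pvalb (PV), Sst (SST) or Vip (VIP), with 12 old pools of each type and 9 young pools of PYC, SST and VIP and 8 of PV, 83 pools in all. A pool is a mixture cut from tissue, so fewer cells of a type and less RNA per cell cannot be told apart.

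Neuropeptides are made as long precursors that are cut by prohormone convertases, trimmed and often amidated in dense core granules, and then released to act on G protein-coupled receptors. In the cortex VIP cells are known mainly for inhibiting other interneurons, and many of them also make corticotropin-releasing hormone or enkephalin. Cholecystokinin is made by a separate class of cortical basket cells, by some VIP cells and, as mRNA, by many pyramidal cells.

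The libraries held 1.46 to 27.2 M counts each (M for mega; median 6.99 M). In 6 libraries, among them young VIP replicates 1 and 3 and old VIP replicate 11, the share of counts from mitochondrially encoded genes was 0.215% to 2.51%, where the other 77 had 8.31% to 17.0%. Of 18 marker genes of VIP cells, which include the stained target Vip, 17 could be tested. All 17 were higher in VIP than in PYC and PV pools and 15 than in SST pools. Of all genes tested, 3.49%, 7.75% and 2.28% were higher in VIP than in PYC, PV and SST pools. Levels are CPM, counts per M of the library total. Differences are log2 fold changes with standard errors from edgeR's quasi-likelihood test with Benjamini-Hochberg adjustment over all genes tested, and a gene is called where the adjusted p is under 0.05.

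Vip (ENSMUSG00000019772, chromosome 10, 5639218 to 5647617, plus strand, GRCm38) encodes VIP and the related peptide PHI. Crh (ENSMUSG00000049796, chromosome 3, 19693401 to 19695396, minus strand) encodes corticotropin-releasing hormone, the peptide that starts the hypothalamic stress response. Penk (ENSMUSG00000045573, chromosome 4, 4133531 to 4138819, minus strand) encodes proenkephalin, the source of the enkephalin opioids. Cck (ENSMUSG00000032532, chromosome 9, 121489824 to 121495694, minus strand) encodes cholecystokinin. RefSeq promoter windows of GRCm38.p6 matched 2 of the 4 genes, and the 150 bases before the start of each are shown because cyclic AMP response elements are known to drive peptide genes. Capitals mark the core TGACG of that element, searched as these letters on both strands (CGTCA on the other), which 4376 of 32851 windows of the same length held (13.3%).
Vip, chr10:5639068-5639217, plus strand: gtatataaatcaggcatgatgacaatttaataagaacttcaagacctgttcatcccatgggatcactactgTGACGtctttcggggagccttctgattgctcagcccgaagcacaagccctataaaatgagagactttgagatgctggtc
Cck, chr9:121495695-121495844, minus strand: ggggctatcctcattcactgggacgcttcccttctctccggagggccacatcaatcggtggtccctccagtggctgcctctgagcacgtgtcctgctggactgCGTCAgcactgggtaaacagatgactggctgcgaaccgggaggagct
Each window held 1 match, which began 79 bases before the start in Vip and 47 bases before it in Cck. A match describes the letters of the window and not a bound site.

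Vip was the stained target of the VIP pools, so its levels check the capture and are given with no test between types. In old VIP pools Vip ran from 286 to 975 CPM with a median of 498 CPM and a mean of 548 ± 203 CPM (SD, n = 12). In young VIP pools it ran from 325 to 2216 CPM with a median of 633 CPM and a mean of 871 ± 663 CPM (SD, n = 9). The ages overlapped, and the highest pools were young replicates 3 (2216 CPM) and 1 (1806 CPM), both among the libraries with few mitochondrial counts. Vip averaged 5.45 ± 8.69 CPM (SD, n = 21) in PYC, 2.55 ± 5.62 CPM (SD, n = 20) in PV and 3.75 ± 6.29 CPM (SD, n = 21) in SST pools, and no pool of these types reached the VIP range.

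**Figure D1:**
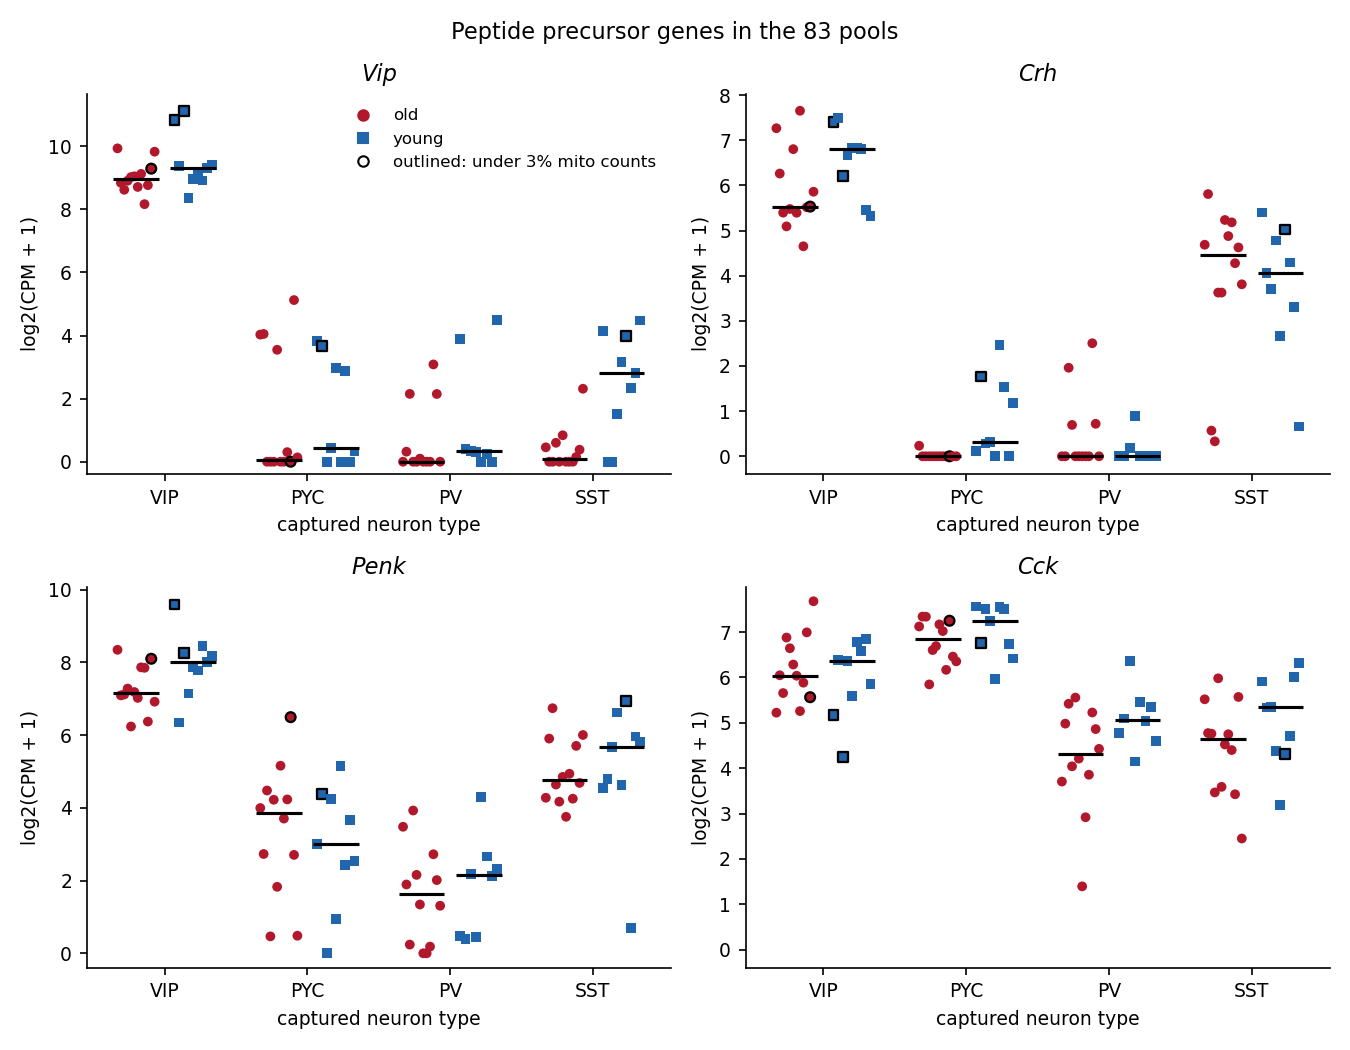
Levels of Vip, Crh, Penk and Cck as log2(CPM + 1) in each of the 83 pools, by neuron type and age; each point is 1 library, short lines are group medians, and outlined points are libraries with under 3% mitochondrial counts. Crh sits near 0 in PYC and PV pools, Vip is below its VIP range in all pools of the other types with up to 33.8 CPM in PYC pools, and Cck is highest in PYC pools (median 129 CPM) and next in VIP pools (median 65.1 CPM).

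Crh was a gene of VIP and SST pools. It ran from 24.1 to 200.3 CPM in old VIP pools (median 45.0 CPM, n = 12) and from 39.0 to 178 CPM in young ones (median 111 CPM, n = 9). In SST pools it ran from 0.258 to 55.0 CPM with a median of 18.4 CPM and a mean of 20.0 ± 14.6 CPM (SD, n = 21). It averaged 0.514 ± 1.14 CPM (SD, n = 21) in PYC and 0.491 ± 1.19 CPM (SD, n = 20) in PV pools. VIP pools did not overlap with PYC or PV pools and overlapped with the upper SST pools, although every VIP pool was above the SST mean. The log2 difference of VIP from PYC was 8.86 ± 0.52 (SE, edgeR adjusted p 2.67e-23), from PV 7.94 ± 0.72 (3.93e-12) and from SST 2.16 ± 0.36 (1.14e-05), the last a fold of 4.48. SST pools in turn held more Crh than PYC and PV pools, with log2 differences of PYC from SST of -6.70 ± 0.85 (edgeR adjusted p 2.38e-09) and of PV from SST of -5.80 ± 0.95 (2.14e-06). Since 13 of 21 PYC and 14 of 20 PV libraries had no Crh count, the size of the differences from these types is imprecise.

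Penk followed the order VIP, SST, PYC, PV. It ran from 74.6 to 325 CPM in old VIP pools (median 141 CPM, n = 12) and from 80.6 to 773 CPM in young ones (median 256 CPM, n = 9). SST pools averaged 43.4 ± 32.6 CPM (SD, n = 21), PYC pools 15.4 ± 19.8 CPM (SD, n = 21) and PV pools 3.93 ± 5.03 CPM (SD, n = 20). No PV pool reached the VIP range, while the highest SST pools did. Of the PYC pools only old replicate 10 reached it (89.2 CPM, next 34.8 CPM), a library with 1.26% mitochondrial counts. Penk was 5.06-fold higher in VIP than in SST pools (log2 2.34 ± 0.33, edgeR adjusted p 2.16e-06). It was 14.8-fold higher than in PYC (3.89 ± 0.49, adjusted p 1.55e-07) and 51.8-fold higher than in PV pools (5.69 ± 0.55, adjusted p 1.72e-10). SST pools were above PV pools (PV from SST -3.37 ± 0.55, edgeR adjusted p 1.95e-06) and PYC pools (PYC from SST -1.55 ± 0.46, 0.0172). The call of PYC from SST was lost with the F number of the sample titles, which the labels do not explain, as a factor (-1.47, edgeR adjusted p 0.0748), with old libraries alone (-0.99, 0.429) and with young libraries alone (-2.11, 0.107). PYC and PV, neighbours in the order, did not pass the threshold here (1.80 ± 0.74, edgeR adjusted p 0.0897), but were called in a fit of all 8 groups (1.79, 0.00665), with DESeq2 (1.81, 0.0191) and without young PV replicate 5 (2.22, 0.0383).

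Cck did not share that order and was highest in PYC pools. It ran from 56.5 to 188 CPM in PYC pools (median 129 CPM, n = 21), and from 18.0 to 204 CPM in VIP pools (median 65.1 CPM, n = 21). PV pools averaged 28.2 ± 17.6 CPM (SD, n = 20) and SST pools 31.5 ± 20.9 CPM (SD, n = 21). All 4 ranges overlapped. Cck was 1.76-fold lower in VIP than in PYC pools (log2 -0.82 ± 0.21, edgeR adjusted p 0.00428), and below the PYC mean in 19 of 21 VIP pools. It was 2.48-fold higher in VIP than in PV pools (1.31 ± 0.29, edgeR adjusted p 0.000408) and 2.39-fold higher than in SST pools (1.26 ± 0.28, 0.00189), above their mean in 20 of 21 pools each. PYC exceeded PV (2.10 ± 0.24, edgeR adjusted p 3.87e-11) and SST (2.06 ± 0.24, 2.20e-10), and PV and SST did not differ past the threshold (-0.0637 ± 0.34, 0.962). With old pools alone the difference of VIP from PYC was -0.56 ± 0.26 and with young pools alone -1.04 ± 0.32, and neither passed. With young pools alone the differences from PV (0.82 ± 0.42, edgeR adjusted p 0.323) and from SST (0.86 ± 0.43, 0.612) did not pass either.

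Markers of pyramidal cells took the same order of types as Cck. Slc17a7, the vesicular glutamate transporter by which PYC cells were picked, averaged 471 ± 120 CPM (SD, n = 21) in VIP pools against 822 ± 278 CPM (SD, n = 21) in PYC, 348 ± 72.5 CPM (SD, n = 21) in SST and 257 ± 75.1 CPM (SD, n = 20) in PV pools. The 16 pyramidal markers include the stained target Slc17a7. Together they ran from 2863 to 5682 CPM in VIP pools, 4818 to 8188 CPM in PYC, 2011 to 3477 CPM in SST and 1270 to 3091 CPM in PV pools, with none of the 16 at 0 in any type. Of the 16, with Slc17a7 counted, 11 were lower in VIP than in PYC pools and 1 was higher, and 6 and 4 were higher in VIP than in PV and SST pools with none lower. Of all genes tested, 3.39% were lower and 3.49% higher than in PYC pools, and 7.75% and 2.28% were higher than in PV and SST pools. Cck per unit of Slc17a7 was 0.170 ± 0.0901 (SD, n = 21) in VIP, 0.163 ± 0.0670 (SD, n = 21) in PYC, 0.121 ± 0.0786 (SD, n = 20) in PV and 0.0935 ± 0.0673 (SD, n = 21) in SST pools. The ranges of this ratio overlapped between all 4 types. The same ratio for Penk was 0.501 ± 0.319 (SD, n = 21) in VIP, 0.125 ± 0.0842 (SD, n = 21) in SST, 0.0179 ± 0.0193 (SD, n = 21) in PYC and 0.0171 ± 0.0235 (SD, n = 20) in PV pools. Since Slc17a7 was used to pick PYC cells, these ratios are a description. The part of pyramidal RNA in the Cck level of VIP pools was not tested.

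Vip is left out of the counts that follow, since it was used to pick the cells. Of the other 3 members, 2 were called higher and 1 lower in VIP than in PYC pools, where 6.89% of the 15482 genes tested were called, 3.49% higher and 3.39% lower. All 3 were higher than in PV pools, where 14.1% of 15823 genes were called and 7.75% were higher, and all 3 higher than in SST pools, where 4.56% of 15620 were called and 2.28% were higher. Ranges lay wholly above those of the other type for Crh against PYC (0.207% of genes), for Crh and Penk against PV (0.265%) and for 0 of the 3 against SST (0.0896%). Among the other pairs of types 16.4% (PYC against PV), 9.66% (PYC against SST) and 10.4% (PV against SST) of genes were called. The median of the 3 differences was 3.89 against PYC, 5.69 against PV and 2.16 against SST, where the medians of all genes tested were 0.0187, 0.0852 and 0.00699.

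**Figure D2:**
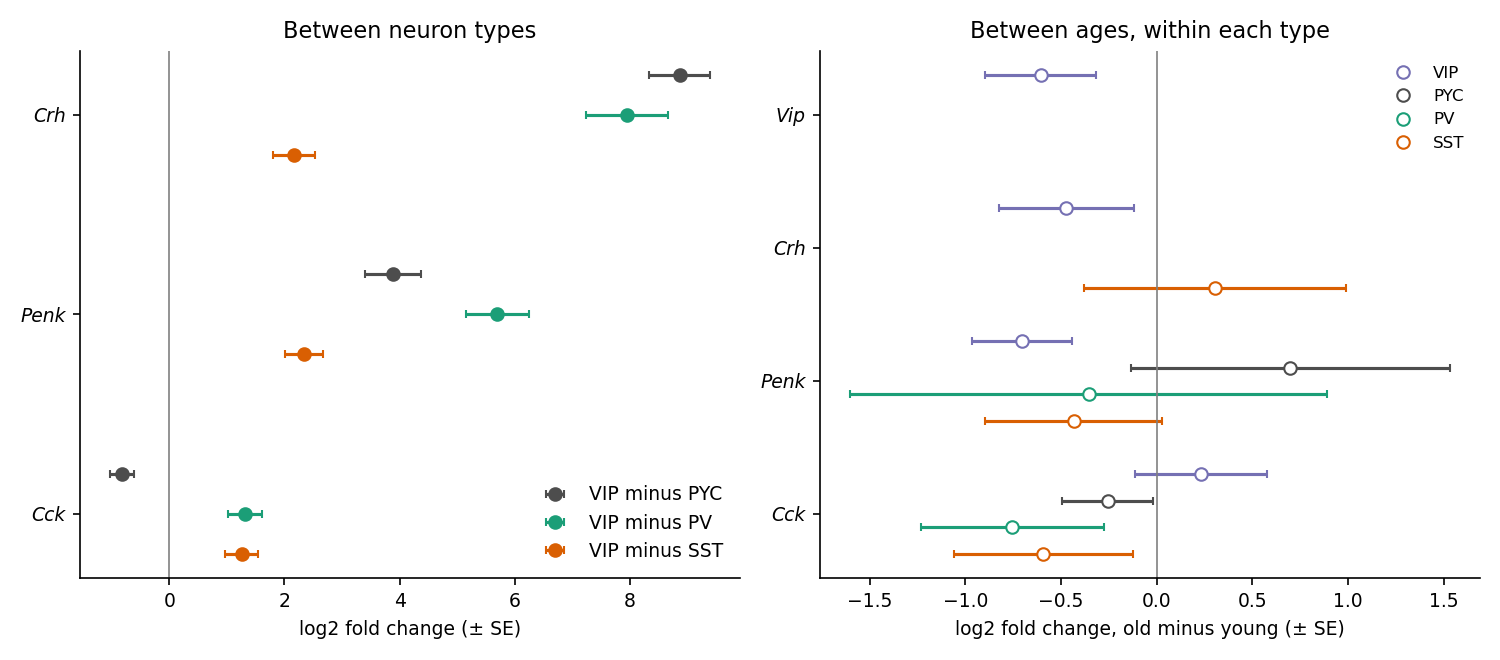
Left, log2 fold changes of Crh, Penk and Cck in VIP pools against PYC, PV and SST pools; right, log2 fold changes of old against young pools within each type, with bars of 1 standard error and filled points where the edgeR adjusted p is under 0.05. All 9 differences between types are filled and all 11 between ages are open; Vip is left out of the left panel because it was used to pick the cells.

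Per kilobase of exon, Vip was the highest of the 4 in VIP pools, with 202 ± 140 CPM per kb (SD, n = 21). Penk followed with 137 ± 92.6, Crh with 65.2 ± 40.3 and Cck with 59.0 ± 32.3 CPM per kb (SD, n = 21 each). Penk exceeded Vip in 2 of 21 pools and Crh exceeded Penk in 2 of 21. The means of each pair of neighbours in this order differed by less than the larger SD of the pair, and those of Crh and Cck were closest. With the longest coding transcript as the length instead of all exons, the levels became 449 for Vip, 154 for Penk, 96.4 for Cck and 65.2 CPM per kb for Crh, so the order of Crh and Cck depends on the length used. The ratio of Penk to Vip per length had a median of 0.734 and ran from 0.254 to 1.68, and that of Crh to Vip had a median of 0.266 and ran from 0.0846 to 0.928.

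**Figure D3:**
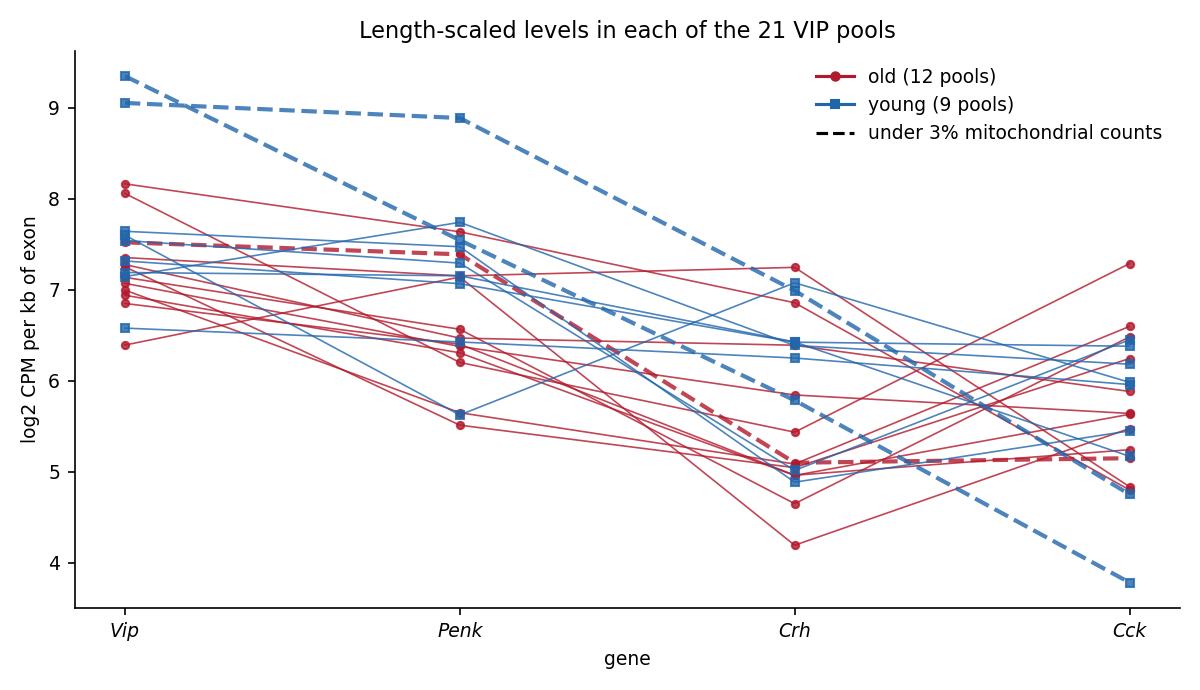
Log2 CPM per kb of exon of Vip, Penk, Crh and Cck, with 1 line for each of the 21 VIP pools; dashed lines are libraries with under 3% mitochondrial counts. Vip was above Penk in 19 of 21 pools, and lines cross most between Crh and Cck.

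None of the 4 was called between ages in VIP pools, where 0 of the 12337 genes tested were called (0%), 368 had an unadjusted p under 0.05, and DESeq2 also called 0. The means of Vip, Crh and Penk were lower in old pools, and each member overlapped between the ages. For Penk the old-minus-young log2 difference was -0.70 ± 0.26 (95% interval -1.22 to -0.19, unadjusted p 0.00990, edgeR adjusted p 0.9996), and 11 of 12 old pools were below the young mean. For Vip it was -0.61 ± 0.29 (-1.17 to -0.0406, unadjusted p 0.0469, edgeR adjusted p 0.9996), and it was 0.0012 ± 0.18 when the 3 VIP libraries with a low mitochondrial share were left out. For Penk it was -0.42 without those 3. Crh differed by -0.47 ± 0.35 (-1.16 to 0.22, edgeR adjusted p 0.9996) and Cck by 0.23 ± 0.35 (-0.45 to 0.91, edgeR adjusted p 0.9996).

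In the other types Penk and Cck, and Crh in SST, had enough counts for a test of age, and none of these 7 was called. Cck differed by -0.26 ± 0.24 in PYC, -0.75 ± 0.48 in PV and -0.59 ± 0.47 in SST on the log2 scale, all with edgeR adjusted p of 0.9998 or more. Penk differed by 0.70 ± 0.83 in PYC, -0.36 ± 1.25 in PV and -0.43 ± 0.46 in SST, and Crh by 0.31 ± 0.68 in SST. No gene was called between ages in these types either (0% of 12508, 12564 and 12805 genes by edgeR, with 364, 291 and 368 at an unadjusted p under 0.05), while DESeq2 called 0, 2 and 1.

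A difference between the age effects of 2 types was called for 1 member. For Crh the age effect in VIP minus that in PYC was 4.74 ± 0.90 on the log2 scale (edgeR adjusted p 0.0188), where 1 of 15482 genes was called (0.00646%). The same difference had the opposite sign against PV (-2.69 ± 1.16, unadjusted p 0.0249, edgeR adjusted p 0.727) and against SST (-0.77 ± 0.69, adjusted p 0.99995), and neither was called. The difference from PYC rests on few counts in PYC pools, where Crh had too few for a test of age. Crh passed the count filter of this comparison through the VIP pools. Old PYC pools held 1 Crh count in 12 libraries and young ones 51 counts in 9, with 0 of 12 and 4 of 9 libraries over the floor of 3 counts. Without the libraries with few mitochondrial counts the difference was 4.52 ± 0.96 and not called (adjusted p 0.0708). Leaving out young PYC replicate 6 gave 4.19 (edgeR adjusted p 0.0680) and leaving out old VIP replicate 8 gave 4.49 (0.0583). Vip in SST pools also had few counts, 44 in 12 old and 950 in 9 young libraries, with 2 of 12 and 7 of 9 over the floor and medians of 0.0547 and 5.96 CPM. Its age effect in VIP minus that in SST was 3.20 ± 0.88 (unadjusted p 0.000849, edgeR adjusted p 0.539), where 3 of 15620 genes were called (0.0192%); against PV 0 of 15823 were (0%), with 825 at an unadjusted p under 0.05 and 74 called by DESeq2.

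The members were compared with each other over the 21 VIP pools on log2 CPM centred by age. Penk and Cck gave the largest of the 6 relations among members in size, with Pearson's r of -0.56 (permutation p 0.0133) and Spearman's rho of -0.61 (permutation p 0.00539). Adjusted over the 18 relations computed, these became 0.239 and 0.0970. The r was -0.51 without the 2 pools farthest from the median of Penk, -0.48 without the libraries with few mitochondrial counts, -0.72 in the 12 old pools and -0.42 in the 9 young pools. Vip and Cck gave r of -0.44 (permutation p 0.0584, adjusted 0.338; rho -0.33, p 0.151, adjusted 0.408), which was 0.0638 without young VIP replicates 1 and 3. Vip and Penk gave 0.44 (permutation p 0.0750, adjusted 0.338; rho 0.34, p 0.137, adjusted 0.408), which was 0.19 without the same 2 pools. Vip and Crh gave 0.27 (permutation p 0.219, adjusted 0.528; rho 0.31, p 0.164, adjusted 0.408), and no relation passed the adjustment. A limma fit on all genes, with age as a term, gave a log2 slope of Cck per SD of Penk of -0.55 (adjusted p 0.293) and of Penk per SD of Cck of -0.45 (limma adjusted p 0.0578). Of 12336 genes, 1.51% had a called slope on Vip, 0.00811% on Crh, 0.00811% on Penk and 0.43% on Cck. These slopes were not fitted again without young VIP replicates 1 and 3, which held the most Vip and few mitochondrial counts.

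**Figure D4:**
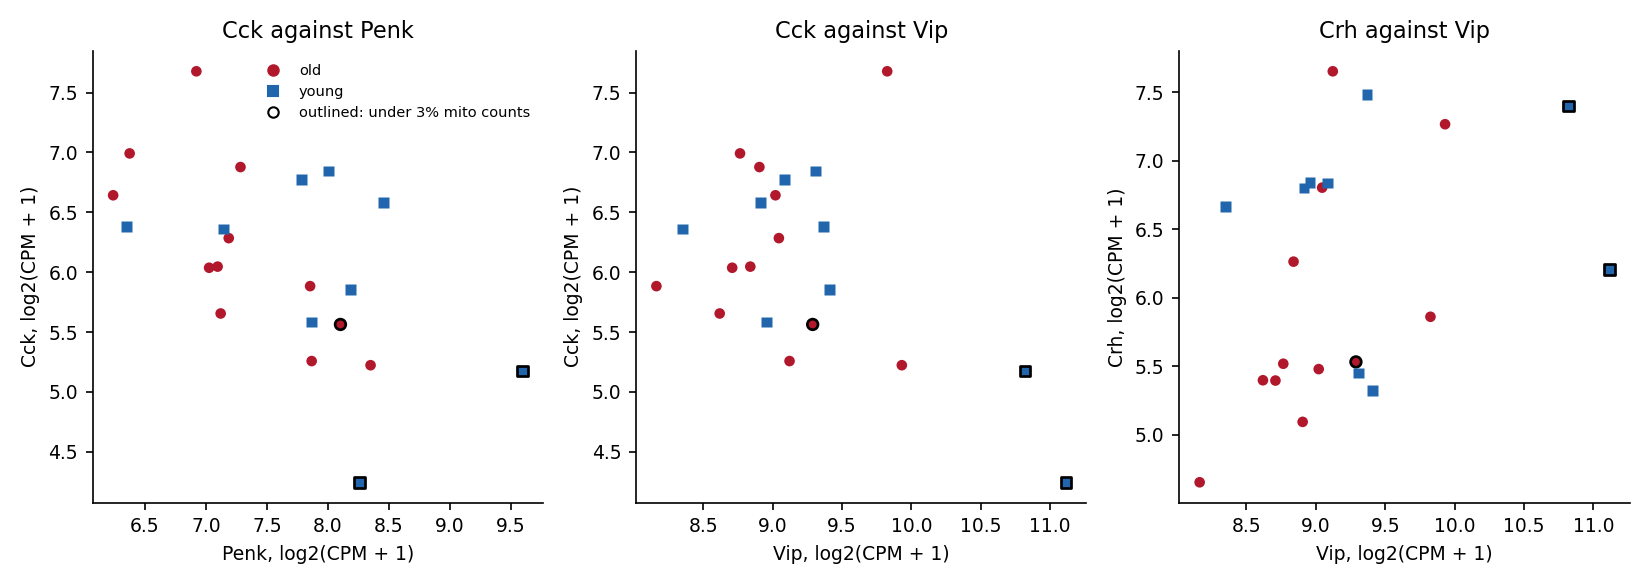
Levels of 3 pairs of members as log2(CPM + 1) in the 21 VIP pools, with circles for old and squares for young pools and outlines for libraries with under 3% mitochondrial counts. Cck against Penk gave r of -0.56, which did not pass the adjustment, and the 2 pools with the most Vip are those with the least Cck.

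The genes whose levels were most like each member over all 83 libraries are given by Pearson's r of log2 CPM among the 14446 genes of at least median abundance, as a description, since the libraries share their neuron type. For Vip they were Grpr (0.84), the receptor of gastrin-releasing peptide, then Adarb2 (0.82), Npy2r (0.79), the serotonin receptor subunit gene Htr3a (0.79) and Chat (0.77), which encodes the acetylcholine-making enzyme. For Crh they were the growth factor gene Igf1 (0.83), the calretinin gene Calb2 (0.83), the neurokinin B gene Tac2 (0.79), Nr2f2 (0.78) and Npas1 (0.78). For Penk they were Crh itself (0.73), Nrxn2 (0.71), Tac2 (0.71), Nr2f2 (0.70) and Vav2 (0.70). For Cck they were Arpp21 (0.74), Zbtb18 (0.72), Nell2 (0.70), Gpr26 (0.70) and Nptxr (0.70), all with a higher mean in PYC than in VIP pools.

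Receptors of the members were measured in each type. Of the 4 genes of the VIP and PACAP system 3 could be tested, and 1 was called, the PACAP receptor gene Adcyap1r1, higher in VIP than in PYC pools (160 against 77.4 CPM, log2 0.96 ± 0.19, edgeR adjusted p 0.000105). Against PYC 6.89% of all genes tested were called. Vipr1, a VIP receptor gene, averaged 33.6 ± 24.5 CPM (SD, n = 21) in VIP and 43.2 ± 26.9 CPM (SD, n = 21) in PYC pools and was not called against any type. Vipr2, the other VIP receptor gene, was over the floor of 3 counts in 3 of 21 VIP pools. Of the 6 genes of the CRH system 2 could be tested against PYC and PV, and neither was called there. Against SST, 4.56% of all genes tested were called. Crhr1, the main CRH receptor, was not called against any type, with 10.2 ± 17.1 CPM (SD, n = 21) in VIP pools. Crhbp, which encodes the binding protein that holds CRH away from its receptors, averaged 11.9 ± 29.6 CPM in VIP and 95.6 ± 41.3 CPM in SST pools (SD, n = 21 each), a log2 difference of -3.48 ± 0.79 (edgeR adjusted p 0.00383). Old VIP replicate 11, which also held Sst at 331 CPM, had 133 CPM of Crhbp, and without it the VIP mean was 5.86 ± 10.6 CPM (SD, n = 20) and the difference -4.10 ± 0.77 (edgeR adjusted p 0.000366). Crhr2, named after its values were seen, was lower in VIP than in SST pools as well (-3.74 ± 1.09, edgeR adjusted p 0.0254). It had too few counts for a test against PYC or PV and passed the count filter here through the SST pools, so its calls are a description. It had no count in 10 of 12 old and 6 of 9 young VIP pools. The VIP pools over 300 CPM of Sst, old replicates 9 and 11, held 5.98 and 4.85 CPM of Crhr2. Without them the VIP mean was 0.252 ± 0.620 CPM (SD, n = 19) and the difference -6.59 ± 1.20 (edgeR adjusted p 6.06e-05). At these levels the size of both differences is imprecise.

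Genes of the opioid system were called against each of the other types, and 6 of the 7 could be tested. Of all genes tested, 6.89% were called against PYC, 14.1% against PV and 4.56% against SST. Pdyn and Oprk1 were named by their p in these same comparisons, so their calls are a description. Oprd1, the delta receptor on which enkephalins act, was lower in VIP than in PV pools (12.8 against 123 CPM, log2 -3.64 ± 0.44, edgeR adjusted p 2.53e-08) and SST pools (57.7 CPM, -2.38 ± 0.41, 1.90e-05). Pdyn, the precursor of the dynorphin opioids, was lower than in SST pools (10.6 against 150 CPM, -4.08 ± 0.61, edgeR adjusted p 9.37e-06), with -4.89 ± 0.56 (4.49e-08) without the same 2 VIP pools. Oprk1, its receptor, was higher than in PV pools (5.13 against 0.359 CPM, 4.21 ± 1.40, edgeR adjusted p 0.0300). Oprk1 had no count in 8 of 12 old and 3 of 9 young VIP pools. The highest old VIP pool held 74.9 CPM of it, so its VIP mean and this difference are imprecise. Oprm1, the mu receptor, was not called against any type. Pnoc, the precursor of nociceptin, and its receptor gene Oprl1 were named after their values were seen. Pnoc was higher in VIP than in PYC pools (7.64 ± 1.09, edgeR adjusted p 1.16e-07), and Oprl1 was lower than in SST pools (-1.41 ± 0.42, 0.0307). Cckbr, the brain receptor of cholecystokinin and the 1 of 3 genes of that system with enough counts, was lower in VIP than in PYC pools (19.7 against 51.1 CPM, -1.53 ± 0.38, edgeR adjusted p 0.00429).

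The genes that process and release peptides were measured in every type. Those named from the processing, granule and peptidase lists were picked by their values in these same comparisons, so their calls are a description. All 12 processing genes could be tested, and 2 were higher and 1 lower in VIP than in PYC pools, 2 higher and 2 lower than in PV and 1 higher and 1 lower than in SST pools. That is 3, 4 and 2 of 12, beside 6.89%, 14.1% and 4.56% of all genes tested. The median difference of the 12 was -0.17, 0.11 and -0.0698 on the log2 scale. Pcsk2, the prohormone convertase that cuts proenkephalin, differed from all 3 types: VIP pools were below PYC (188 against 289 CPM, -0.68 ± 0.14, edgeR adjusted p 0.000196) and above PV (71.3 CPM, 1.31 ± 0.16, 6.62e-10) and SST pools (122 CPM, 0.63 ± 0.16, 0.00818). Pam, which amidates VIP, CRH and cholecystokinin, was above PYC (1.11 ± 0.17, edgeR adjusted p 4.64e-07) and below SST pools (-0.39 ± 0.12, 0.0346). Qpct, which caps peptides with pyroglutamate, was above PYC (3.14 ± 0.87, edgeR adjusted p 0.0117) and PV pools (4.64 ± 0.97, 0.000177). Furin, an early convertase, was below PV pools (-1.29 ± 0.35, edgeR adjusted p 0.00461), as was Pcsk1n, the inhibitor of prohormone convertase 1, named after its values were seen (-0.39 ± 0.13, 0.0256).

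Among 11 genes of dense core granules, all of them tested, 2 were higher in VIP than in PYC pools, 5 higher and 1 lower than in PV and 1 higher and 1 lower than in SST pools, or 2, 6 and 2 of 11 beside the same shares of all genes. Cadps2, which primes granules for release, was above PV (0.85 ± 0.26, edgeR adjusted p 0.0162) and SST pools (0.99 ± 0.28, 0.0204). Its relative Cadps, named after its values were seen, was below both (-1.06 ± 0.09, edgeR adjusted p 1.89e-15, and -0.34 ± 0.10, 0.0424), though the call against SST was lost without old VIP replicate 9 (-0.32, 0.0598) or 11 (-0.33, 0.0556). Ptprn, a granule membrane protein, was above PV pools with no overlap of the ranges (440.0 against 226 CPM, 0.91 ± 0.11, edgeR adjusted p 8.37e-10). Of 8 peptidase genes 7 could be tested, and 1 was called, Mme, which encodes the enkephalin-cleaving neprilysin (lower than in PV pools, -3.03 ± 0.84, edgeR adjusted p 0.00974). That is 1 of 7 against PV, near the 14.1% of all genes tested that were called there. No gene of these receptor, processing, granule or peptidase lists was called between ages in any type.

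**Figure D5:**
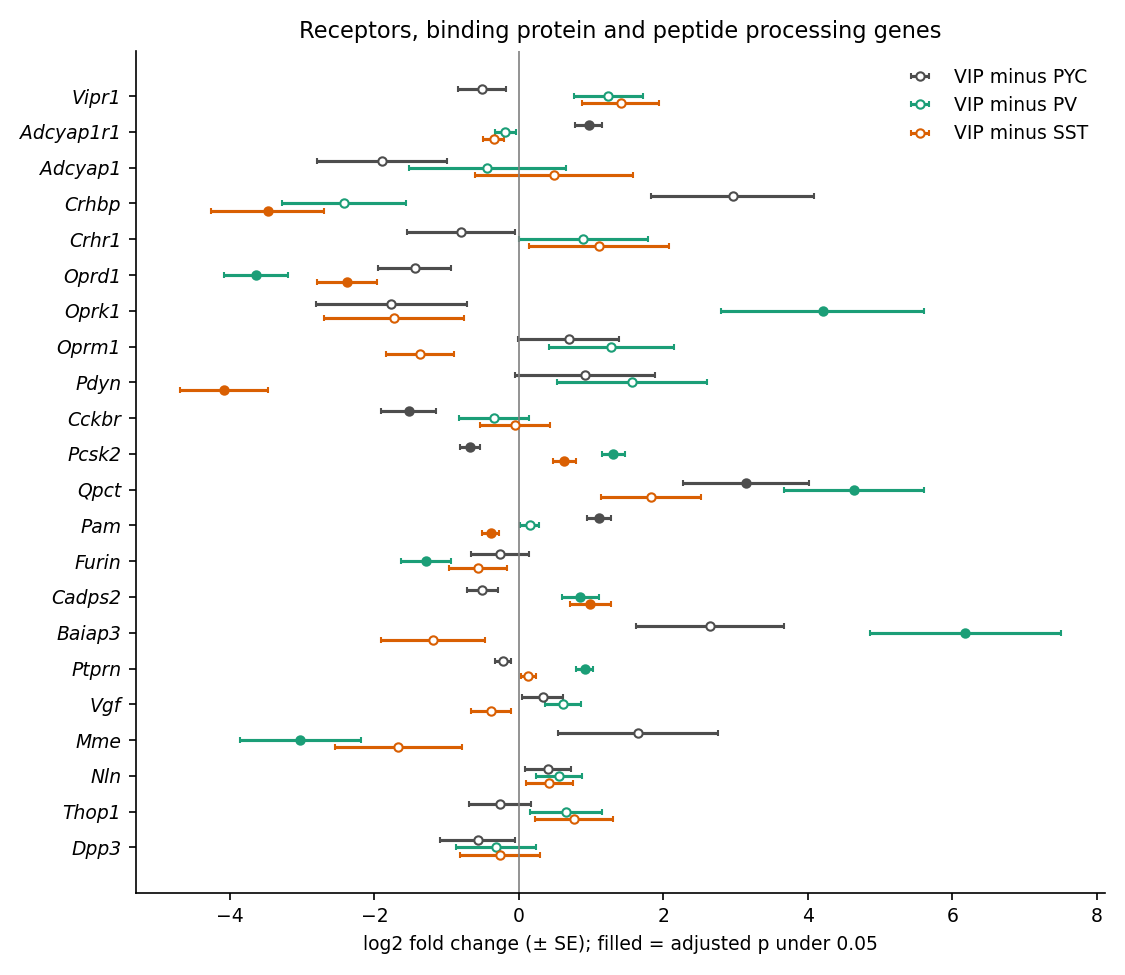
Log2 fold changes of receptor, processing, granule and peptidase genes in VIP pools against PYC, PV and SST pools, with bars of 1 standard error and filled points where the edgeR adjusted p is under 0.05. Pcsk2 is filled against all 3 types, and Oprd1 lies below 0 in all 3 and is filled against PV and SST.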

How the data were processed

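The values are raw counts for each Ensembl gene, as the authors deposited them. Per the submitters' processing notes, reads were aligned to GRCm38 using HISAT2. Libraries came from a stranded total RNA kit for very small input, per the labels' protocols. The tool, annotation and strand setting used for counting are unstated in the labels and files used here. Overlapping and antisense genes are therefore uncertain, and the floor of 3 counts covers counting error only.

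Symbols matched 48349 of 48795 genes, and positions and exon lengths are from GENCODE M21. Replicate numbers follow sample order and pair nothing. The labels do not tie libraries to mice. The series lists 9 young and 12 old mice, so p-values measure the spread between libraries.

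edgeR 4.0.16 in R 4.3.3 was used with TMM factors, filterByExpr (minimum count 10), the robust quasi-likelihood F-test, 2-sided, and Benjamini-Hochberg adjustment. Pairs of types were fitted with 4 groups (mean of both ages, and the difference of age effects), and ages within each type. Standard errors come from the F statistic, and intervals are 1.96 standard errors. Correlations used log2 CPM with a prior count of 2 (limma 3.58.1) and 100000 permutations within age. The tests were tried on simulated counts.

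The members and gene lists were chosen with earlier results of these data known. Named genes were up to 4 per list with the smallest p over VIP against all 3 other types, named receptors, and the 5 genes most like each member. Alternatives were RLE factors, no filter, DESeq2 1.42.0, limma-voom with quality weights, the F number in the titles (not explained by the labels) as a factor, a fit of all 8 groups, 1 age alone, and leaving out libraries with under 3% mitochondrial counts, VIP libraries over 300 CPM of Sst, or each library in turn. After the data had been seen, leaving out each library was extended to the other types and to the differences of age effects, the unfiltered calls were split by the count filter, Vip was left out of counts between types, and pathway genes in VIP against SST were fitted again without the VIP libraries over 300 CPM of Sst.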

Additional observations from a re-analysis of the deposited data

Results flagged for a closer look

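In groups of 4 to 10 libraries, here the young ones, 4 values stood apart from the rest of their group, out of 16 groups tested. The old groups, of 12 libraries each, were not tested. The cut-off flags about 1 in 20 for normally distributed values. CPM need not be so distributed, so the number that chance flags here is not known. Penk reached 773 CPM in young VIP replicate 1, with the next library at 349 CPM, and the old-minus-young difference in VIP pools without that library was -0.41. That library also has 0.890% mitochondrial counts, and the part of this in its Penk level was not tested. Penk was at 18.8 CPM in young PV replicate 5 (next 5.32 CPM), and Cck at 80.8 CPM in young PV replicate 3 (next 43.0 CPM). Crh was at 0.866 CPM, 7 counts, in young PV replicate 4 (next 0.131 CPM), and 6 of the 8 libraries of that group had no Crh count.

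The difference of the Crh age effects of VIP and PYC pools was called (edgeR quasi-likelihood test, adjusted p 0.0188). PYC libraries held 0 to 16 Crh counts, too few for a test of age within PYC pools. The call was lost without young PYC replicate 6 (edgeR adjusted p 0.0680) or old VIP replicate 8 (0.0583). It was also lost without the libraries with few mitochondrial counts (0.0708).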

How the results depend on the processing

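Of 320 values of the members under alternatives other than leaving out 1 library, 298 kept their direction and their side of the threshold. The cause of the changes was not tested. Cck in VIP against PYC was -0.56 with old and -1.04 with young libraries alone, and against PV and SST 0.82 and 0.86 with young libraries alone, none of them called. Penk in PYC against SST was -1.47 with the F number, -0.99 with old and -2.11 with young libraries alone, not called, and in PYC against PV 1.79 in a fit of all 8 groups and 1.81 with DESeq2, both called. Cck in PV against SST turned to 0.19 with the F number, 0.19 with limma-voom and 0.0306 with young libraries alone. The age effect in VIP pools became 0.0012 for Vip without the libraries with under 3% mitochondrial counts, and for Cck -0.0069 with the F number and -0.0703 with limma-voom. In SST pools it became -0.37 for Crh with limma-voom. Without a filter the age effects of Vip (-0.61) and Penk (-0.70) in VIP pools and the difference of the Vip age effects of VIP and SST (3.24) were called. That of Crh between VIP and PYC was 4.52 without the libraries with few mitochondrial counts, and not called. The correlation of Vip and Cck became 0.0638 without the 2 farthest libraries and 0.10 without those with few mitochondrial counts.

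Leaving out 1 library at a time, the differences of Crh, Penk and Cck in VIP from each other type were called every time. Ranges with a changed call or sign were 4.19 to 5.47 for the difference of age effects between VIP and PYC of Crh, -0.49 to 1.75 for Vip against PV, -1.11 to 0.10 for Penk against PV, 2.89 to 4.73 for Vip against SST and -0.51 to 0.0342 for Penk against SST. They were 1.53 to 2.22 for Penk in PYC against PV, -0.18 to 0.0363 for Cck in PV against SST and -0.79 to 0.49 for the Penk age effect in PV. Called were Vip against SST without old SST replicate 12 and Penk in PYC against PV without young PV replicate 5.

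Genes called between types numbered 4318 to 5915 without a filter, against 713 to 2589. Fits of all 8 groups called 1817 (VIP against PYC) and 1274 (VIP against SST), and 1 age alone 177 to 1403. For age, no filter called 7117 genes in VIP, 6505 in PYC, 6355 in PV and 5734 in SST, of which 107, 92, 69 and 75 pass the count filter. The fit of all 8 groups called 13 in PYC and 1 in PV, and limma-voom 2 in each of these. For differences of age effects from PYC, PV and SST the fit of all 8 groups called 96, 107 and 98, DESeq2 15, 74 and 28, and no filter 2700, 2568 and 2563. No paired analysis was possible because the replicate numbers come from sample order and the labels tie no library to a mouse. Counts per library of 0 to 16 in PYC and 0 to 25 in PV pools limit what can be said of Crh in these types.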

Other observations

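Old VIP replicates 9 and 11 held Sst, the peptide gene of SST cells, at 439 and 331 CPM, while the next VIP pool was at 55.7 CPM and SST pools ran from 529 to 1220 CPM. In replicate 9 Vip (286 CPM) and Crh (24.1 CPM) were the lowest of the VIP pools, with Penk at 230.3 CPM and Cck at 58.0 CPM. In replicate 11 Vip was at 624.5 CPM, Crh at 45.2 CPM, Penk at 274 CPM and Cck at 46.3 CPM, all within the range of the other VIP pools. Without both pools the log2 differences of VIP from SST pools were 2.24 ± 0.37 for Crh, 2.28 ± 0.33 for Penk and 1.31 ± 0.29 for Cck, each called (edgeR adjusted p 7.08e-06, 5.46e-06 and 0.00132). The part of SST cell RNA in the member levels of these pools was not tested.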
